A study of Mus musculus with 12 samples.

Results

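The colony stimulating factors (CSFs) and their receptors make up 7 of the 19938 genes measured: the 3 ligands Csf1, Csf2 and Csf3 and the 4 receptor genes Csf1r, Csf2ra, Csf2rb and Csf3r. They were chosen by name. Each was read from the probe set annotated with its symbol alone, and each had 1 such probe set. The cells were macrophages grown from the bone marrow of C3H/HeN mice, profiled to set changes in newly made RNA beside changes in the whole RNA pool. They were studied after 45 min and after 270 min (4.5 h) of lipopolysaccharide (LPS, a bacterial outer membrane component sensed by Toll-like receptor 4) at 100 ng/ml, and without stimulation. All cultures received 200 µM 4-thiouridine for the last 35 min, and the RNA that had taken it up was biotinylated and bound to streptavidin beads. Nascent RNA below means this bound fraction, and total RNA the unfractionated extract. The 2 fractions and 3 times give 6 groups of 2 arrays, from 2 independent experiments. Non-adherent marrow cells had been expanded with IL-3, IL-6 and stem cell factor, in 10% L-cell conditioned medium as a source of macrophage CSF. The conditioned medium was left out of the plates used for stimulation, which began the next day, after 17 days of culture in all. All groups shared this culture, so that the cells had been exposed to a ligand of Csf1r, and to IL-3, before every measurement.

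CSFs are secreted glycoproteins that keep myeloid cells alive and drive their growth and differentiation. Csf1 encodes macrophage CSF, which signals through the receptor tyrosine kinase Csf1r and on which most macrophages depend. Csf2 encodes granulocyte-macrophage CSF, which binds the alpha chain Csf2ra and signals through the beta chain Csf2rb, a chain shared with the receptors for IL-3 and IL-5. Csf3 encodes granulocyte CSF, whose receptor Csf3r is best known from neutrophils. Macrophages exposed to LPS are a known source of CSFs, and loss of the Csf1r protein from the cell surface after LPS is also known.

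Levels below are log2 intensities, 1 value per array, and changes are log2 differences between group means with limma's standard error (SE, n = 2 arrays per group). The 2 arrays of a group correlated at r = 0.981 to 0.989 across genes. The interquartile range of the log2 values is given for experiments 1 and 2. On nascent arrays it was 2.64 and 3.00 at 0 min, 2.50 and 2.24 at 45 min, and 2.30 and 2.25 at 270 min. On total arrays it was 2.91 and 2.88, 2.84 and 3.02, and 2.73 and 2.32. Nascent arrays thus had a narrower spread at 270 min than at 0 min. The changes below are as deposited, with quantile scaling as an alternative. On each array the 95th percentile of 1027 olfactory receptor genes, taken to be mostly unused by macrophages, served as a background level and lay between 6.18 and 6.80. Of 10 macrophage markers, 9 were above it on all 12 arrays (Cd163 was above it on 0). Of 10 neutrophil markers 0 were above it on all 12 arrays and 7 were above it on none, and of 4 B cell markers all 4 were above it on none. Of 7 T and NK cell markers 1 (Cd3e) was above it on all 12 arrays and 5 on none. Of 6 fibroblast and stroma markers 2 were above it on all 12 arrays and 1 on none. Of 5 dendritic cell markers 0 were above it on all 12 arrays and 2 on none. Of 4 erythroid and megakaryocyte markers 0 were above it on all 12 arrays and 1 on none. Of 8 mast cell and basophil markers 1 was above it on all 12 arrays and 2 (Mcpt4 and Cma1) were above it on none. Some of the others differed between the experiments. In total RNA at 0, 45 and 270 min Mcpt8 stood at 9.24, 9.59 and 9.19 in experiment 2 and at 6.76, 7.11 and 7.12 in experiment 1. Cpa3 stood at 8.41, 8.92 and 8.73 in experiment 2 and at 6.48, 6.60 and 7.32 in experiment 1. Mcpt8 and Cpa3 were also higher in experiment 2 in the 3 nascent groups, where their experiment 1 values were under background. Fcer1a, Ms4a2 and Gata2 were higher in experiment 2 at each time in total RNA. Tpsb2 in total RNA at 45 min was not (6.24 in experiment 1 and 6.13 in experiment 2). The levels are those of a bulk culture, in which fewer cells of a type and less RNA per cell cannot be told apart.

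LPS raised the RNA of 2 of the 3 ligands, Csf2 within 45 min and Csf1 more slowly, and the RNA of the receptor Csf1r was lower at 270 min. Csf3 stayed under the background level on all 12 arrays. No change of Csf2ra, Csf2rb or Csf3r with time passed the test (limma, adjusted p below 0.05 over all 19938 genes) in the fit without a block, on which all counts below rest. With the experiment as a block, Csf2rb was called lower at 270 min in nascent (adjusted p = 0.00125) and total RNA (adjusted p = 0.0299). Each change that was called had the same direction in both experiments, and the plot of log2 changes shows all 7 genes.

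**Figure D1:**
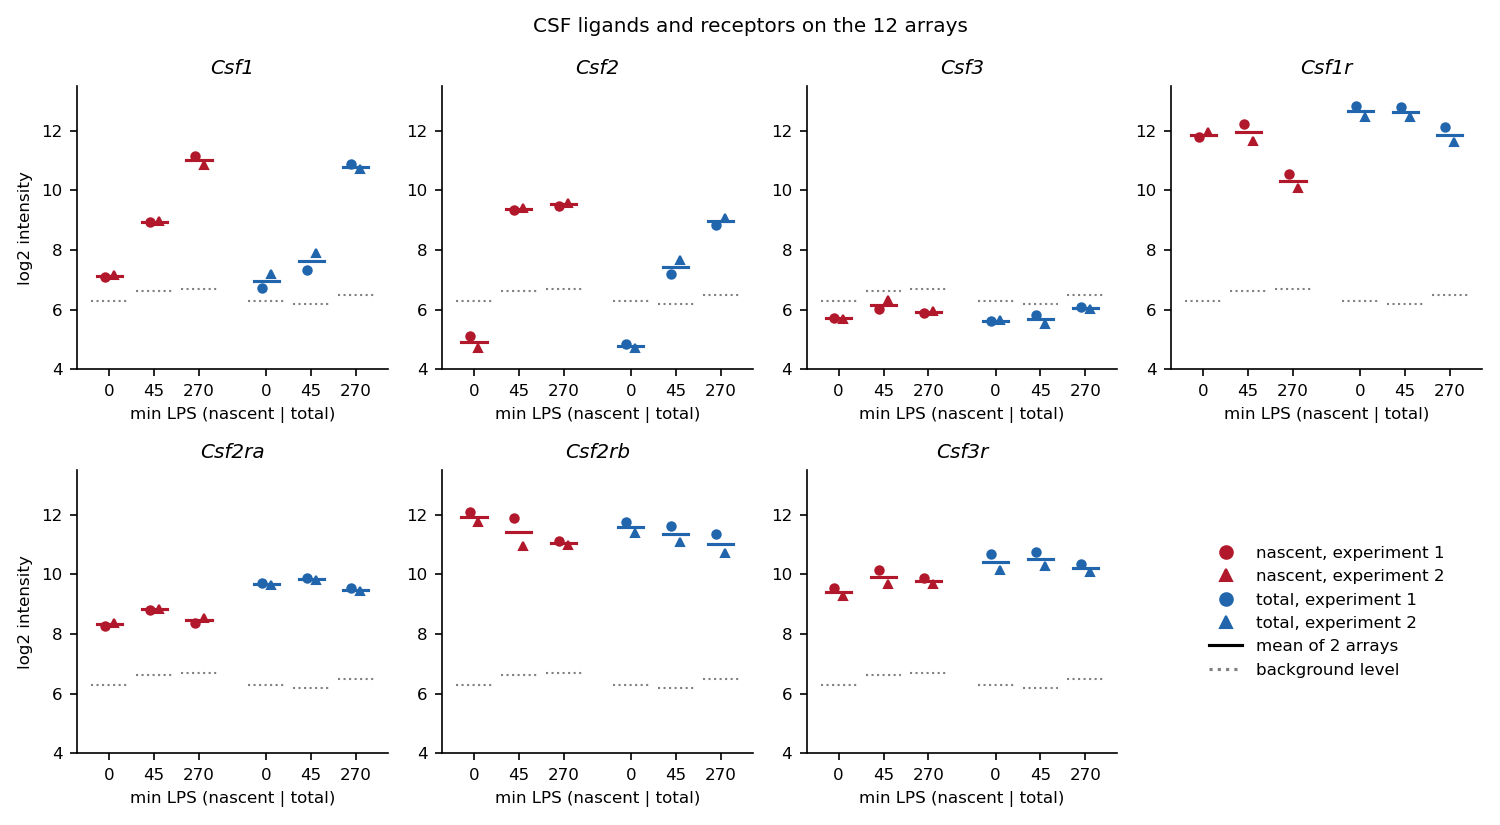
Log2 intensity of the 7 CSF genes on the 12 arrays, by min of LPS, with nascent RNA (red) left of total RNA (blue), experiments as circles and triangles, group means as lines and the background level dotted. Csf2 lies under the background level on the 4 unstimulated arrays and above it on the 8 stimulated ones, Csf3 lies under it throughout, and Csf1r is lowest in nascent RNA at 270 min.

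In nascent RNA at 45 min, 2 of the 7 genes were called higher (Csf1 and Csf2) and 0 lower, where 3.05% of all genes were called higher and 5.88% lower. At 270 min against unstimulated cells, 2 were called higher (Csf1 and Csf2) and 1 lower (Csf1r), against 8.87% and 14.2% of all genes. Between 270 and 45 min in nascent RNA, 1 was higher (Csf1) and 1 lower (Csf1r), against 6.74% and 10%. In total RNA at 45 min, 1 was higher (Csf2) and 0 lower, against 0.662% and 0.0201% of all genes. At 270 min against unstimulated cells, total RNA had 2 higher (Csf1 and Csf2) and 1 lower (Csf1r), against 7.02% and 12%. Between 270 and 45 min in total RNA, the same 2 ligands were higher and Csf1r lower, against 6.64% and 11.5%. The comparisons within a fraction share arrays, so their calls are not independent of each other. Statements below that arrays of groups overlapped or lay apart describe 2 arrays per group. The share of all genes whose arrays lay apart was not counted, so such a separation is no test. The median change of all genes in nascent RNA was 0.11 at 45 min and 0.12 at 270 min, and the changes given are not shifted by it.

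**Figure D2:**
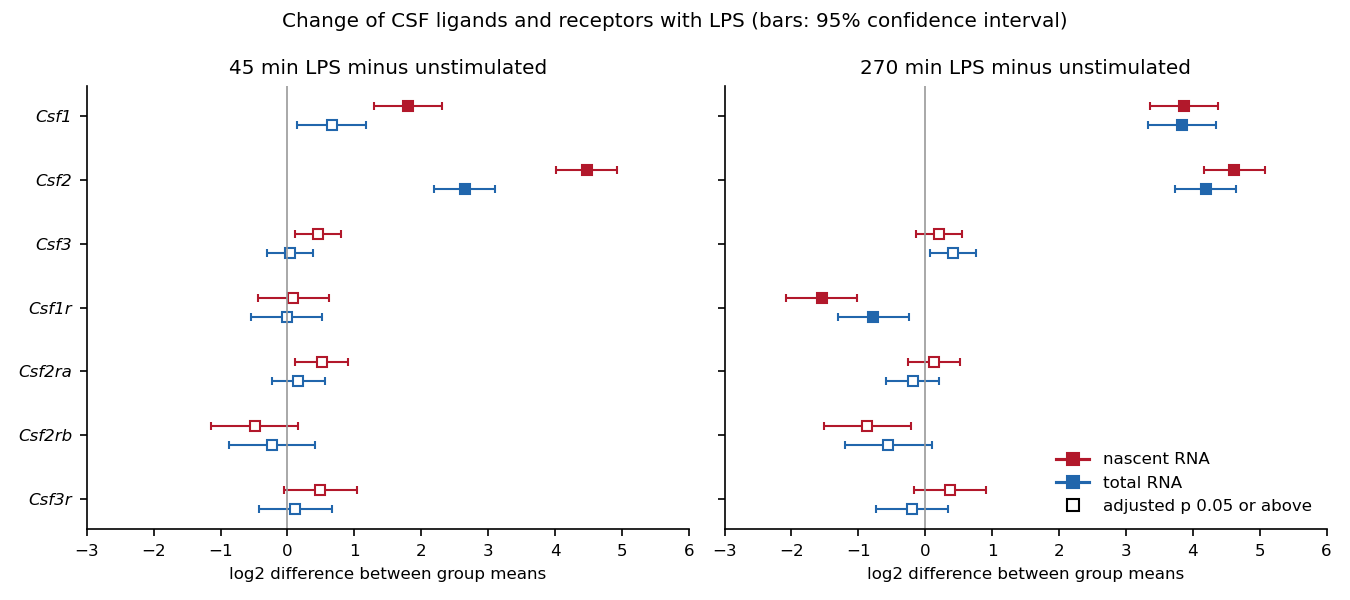
Log2 difference from unstimulated cells after 45 min (left) and 270 min (right) of LPS for the 7 CSF genes, in nascent (red) and total RNA (blue), with 95% confidence intervals from limma and filled squares where the adjusted p was below 0.05. Csf2 in nascent RNA stands at 4.47 at 45 min and 4.62 at 270 min, Csf1 at 1.80 and 3.87, and Csf1r at 0.09 and -1.55.

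Csf2 (granulocyte-macrophage CSF) had nascent levels of 5.11 and 4.71 at 0 min, 9.34 and 9.42 at 45 min, and 9.48 and 9.58 at 270 min in experiments 1 and 2. In total RNA it stood at 4.84 and 4.71 at 0 min, 7.19 and 7.65 at 45 min, and 8.85 and 9.08 at 270 min. All 4 unstimulated arrays were under the background level and all 8 stimulated arrays above it, so the folds below are lower bounds, taken against the higher of the background level and the gene's own value on each unstimulated array. In nascent RNA the fitted rise at 45 min was 4.47 ± 0.21 (adjusted p = 1.53e-08), at least 8.43-fold. At 270 min it was 4.62 ± 0.21 (adjusted p = 4.41e-09), at least 9.35-fold. The nascent difference between 270 and 45 min was 0.15 and was not called (95% confidence interval -0.30 to 0.60, adjusted p = 0.786). Total Csf2 rose by 2.65 ± 0.21 at 45 min (adjusted p = 8e-06), at least 2.21-fold. It rose further between 45 and 270 min, by 1.54 ± 0.21 (adjusted p = 0.000148), to at least 6.43-fold over unstimulated cells. The levels of the 6 groups ran, from the highest, nascent 270 min, nascent 45 min, total 270 min, total 45 min, and then both unstimulated groups, whose arrays overlapped. Csf2 was higher in experiment 2 than in experiment 1 in all 4 stimulated groups, as were the mast cell and basophil markers Mcpt8 and Cpa3, and whether those cells had a part in its level was not tested.

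Csf1 (macrophage CSF) was measurable before stimulation and climbed in steps. Its nascent levels in experiments 1 and 2 were 7.10 and 7.18 at 0 min, 8.93 and 8.96 at 45 min, and 11.15 and 10.87 at 270 min. In total RNA they were 6.74 and 7.18 at 0 min, 7.32 and 7.92 at 45 min, and 10.89 and 10.70 at 270 min. Within each fraction the arrays of the 3 times did not overlap. Nascent Csf1 rose by 1.80 ± 0.24 at 45 min (adjusted p = 0.000346) and by 3.87 ± 0.24 at 270 min (adjusted p = 6.67e-08), which is 3.49-fold and 14.6-fold. Unlike Csf2, it went on rising between 45 and 270 min in nascent RNA, by 2.07 ± 0.24 (adjusted p = 2.62e-05). The difference between these 2 genes in that interval was not tested. Total Csf1 at 45 min was 0.66 above unstimulated cells (95% confidence interval 0.15 to 1.17), by 0.59 and 0.73 in experiments 1 and 2, and did not pass the test (adjusted p = 0.913). At 270 min total Csf1 had risen by 3.84 ± 0.24 (adjusted p = 1.06e-07), 14.3-fold. In the order of levels, nascent and total RNA at 270 min came first and overlapped, nascent and total RNA at 45 min followed apart from each other, and the unstimulated groups came last and overlapped.

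Csf3 (granulocyte CSF) lay between 5.54 and 6.34 on the 12 arrays and was under the background level on each. Its nascent levels were 5.74 and 5.69 at 0 min, 6.01 and 6.34 at 45 min, and 5.90 and 5.94 at 270 min, and its total levels 5.64 and 5.64, 5.81 and 5.54, and 6.08 and 6.02. No fold is given for it. This signal cannot be told from that of genes taken to be mostly unused by the cells, so a low level of Csf3 RNA was not measurable at this sensitivity.

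The promoters of Csf1 and Csf2 are shown because these 2 ligands rose together in nascent RNA at both times, and that of Csf3r because its receptor gene did not pass the test at either. The sequences are from RefSeq (assembly GRCm38.p6) and run 5′ to 3′ on the gene's strand, from 250 bases before to 50 bases after the annotated start. Windows were matched for 4 of the 7 genes. The 4 motifs, picked after the sequences had been seen, were searched on both strands, and capitals mark their matches: GGGA, any 3 bases and TCC for NF-kB, TGANTCA for AP-1, GAGGAA for PU.1 (a factor that keeps myeloid receptor genes active) and TATAAA for the TATA box.
Csf1, chr3:107760420-107760719, minus strand: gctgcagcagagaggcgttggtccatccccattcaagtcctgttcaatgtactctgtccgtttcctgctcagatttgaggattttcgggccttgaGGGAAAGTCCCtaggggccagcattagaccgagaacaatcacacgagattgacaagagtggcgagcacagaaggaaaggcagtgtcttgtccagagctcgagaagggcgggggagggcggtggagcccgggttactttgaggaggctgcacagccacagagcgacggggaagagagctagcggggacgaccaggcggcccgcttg
Csf2, chr11:54249850-54250149, minus strand: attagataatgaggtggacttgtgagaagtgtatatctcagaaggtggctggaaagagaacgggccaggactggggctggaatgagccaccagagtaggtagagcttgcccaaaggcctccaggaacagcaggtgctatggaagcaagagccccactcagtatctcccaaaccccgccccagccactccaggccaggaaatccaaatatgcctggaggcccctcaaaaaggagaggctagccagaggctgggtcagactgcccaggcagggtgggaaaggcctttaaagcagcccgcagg
Csf3r, chr4:126024409-126024708, plus strand: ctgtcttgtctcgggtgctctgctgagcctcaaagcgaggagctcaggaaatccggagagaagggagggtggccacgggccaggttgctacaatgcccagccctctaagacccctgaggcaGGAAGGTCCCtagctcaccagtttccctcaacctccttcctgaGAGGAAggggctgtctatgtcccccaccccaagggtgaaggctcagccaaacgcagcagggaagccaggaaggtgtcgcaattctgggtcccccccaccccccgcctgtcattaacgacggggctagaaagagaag
The Csf1 window held 2 overlapping NF-kB matches, on the plus strand at -155 and on the minus strand at -154, counted from the start. The Csf3r window held an NF-kB match at -129 on the minus strand and a PU.1 match at -86. None of the 4 motifs occurred in the Csf2 window, which says only that these letters are not in it. The Csf2ra window (chr19:61228369-61228668, minus strand) held 2 adjoining PU.1 matches, at -14 and -8. Of 32851 such windows, 4.59% held the NF-kB letters, 7.81% those of AP-1, 28.3% those of PU.1 and 13.6% those of the TATA box.

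Csf1r, the macrophage CSF receptor, was among the bright genes of these macrophages before stimulation. Its nascent levels in experiments 1 and 2 were 11.78 and 11.94 at 0 min, 12.24 and 11.66 at 45 min, and 10.56 and 10.07 at 270 min. In total RNA they were 12.85 and 12.45 at 0 min, 12.81 and 12.47 at 45 min, and 12.11 and 11.63 at 270 min. In each fraction both 270 min arrays were below all 4 earlier arrays, and the 45 min arrays overlapped those of unstimulated cells. Nascent Csf1r was 2.93-fold lower at 270 min than in unstimulated cells (log2 change -1.55 ± 0.25, adjusted p = 0.00036). Against 45 min it was 3.11-fold lower (log2 change -1.64 ± 0.25, adjusted p = 0.000267). At 45 min itself the nascent change was 0.09 (95% confidence interval -0.44 to 0.62), with opposite signs in experiments 1 and 2 (0.46 and -0.28). Total Csf1r changed less, by -0.78 ± 0.25 at 270 min (adjusted p = 0.041) and by -0.76 ± 0.25 between 45 and 270 min (adjusted p = 0.0458). Leaving out an array leaves 1 in its group, whose spread is then taken from the other groups. Of these 2 total RNA calls, the first was lost without total RNA replicate 1 at 0 min (-0.58, adjusted p = 0.267) or replicate 2 at 270 min (-0.54, adjusted p = 0.294), and without either nascent array at 0 min (adjusted p = 0.0509). The second was lost without total RNA replicate 1 at 45 min (-0.60, adjusted p = 0.229), replicate 2 at 45 min (-0.93, adjusted p = 0.0656) or replicate 2 at 270 min (-0.52, adjusted p = 0.325), and without either nascent array at 0 min (adjusted p = 0.0562 and 0.0561).

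Csf2rb, the beta chain through which granulocyte-macrophage CSF, IL-3 and IL-5 signal, had nascent levels in experiments 1 and 2 of 12.09 and 11.76 at 0 min, 11.90 and 10.97 at 45 min, and 11.13 and 10.99 at 270 min. Its total levels were 11.77 and 11.39 at 0 min, 11.61 and 11.09 at 45 min, and 11.35 and 10.71 at 270 min. At 270 min both arrays of a fraction were below both unstimulated arrays, but the change did not pass the test in nascent RNA (-0.87 ± 0.30, adjusted p = 0.0537) or in total RNA (-0.55 ± 0.30, adjusted p = 0.247). With the experiment as a block both were called (adjusted p = 0.00125 in nascent and 0.0299 in total RNA). Csf2rb was lower in experiment 2 than in experiment 1 in 6 of 6 groups, by 0.49 on average. Csf2rb2, the mouse's additional beta chain, which is specific to IL-3 and lies next to Csf2rb, had nascent levels of 11.30 and 10.99 at 0 min, 11.14 and 10.38 at 45 min, and 9.97 and 9.64 at 270 min. It was lower at 270 min in nascent RNA (-1.34 ± 0.29, adjusted p = 0.00375) and in total RNA (-0.95 ± 0.29, adjusted p = 0.0337). The 2 genes are close copies, so their probe sets may share signal.

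Csf2ra, the alpha chain that binds granulocyte-macrophage CSF, moved little. Its nascent levels in experiments 1 and 2 were 8.28 and 8.37 at 0 min, 8.82 and 8.85 at 45 min, and 8.37 and 8.54 at 270 min, and its total levels 9.71 and 9.64, 9.88 and 9.80, and 9.54 and 9.43. Both nascent 45 min arrays were above both unstimulated ones, and the difference of 0.51 ± 0.18 did not pass the test (adjusted p = 0.109). It did with quantile scaling of all 12 arrays (0.75, adjusted p = 0.0224) or within each fraction (0.73, adjusted p = 0.0272). At 270 min the nascent difference was 0.13 (95% confidence interval -0.26 to 0.53) and that in total RNA -0.19 (-0.58 to 0.21).

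Csf3r, the granulocyte CSF receptor, was above background on all arrays although its ligand was not. Its nascent levels in experiments 1 and 2 were 9.55 and 9.28 at 0 min, 10.15 and 9.66 at 45 min, and 9.89 and 9.68 at 270 min, and its total levels 10.67 and 10.13, 10.74 and 10.29, and 10.34 and 10.06. The nascent difference was 0.49 at 45 min (95% confidence interval -0.05 to 1.03, adjusted p = 0.266) and 0.37 at 270 min (-0.17 to 0.91, adjusted p = 0.3), and the total RNA arrays of the 3 times overlapped. Like Csf2rb, Csf3r was lower in experiment 2 in 6 of 6 groups, by 0.37 on average. Csf1r was lower there in 5 of 6 groups, by 0.35 on average. Whether the cells behind the larger Mcpt8 and Cpa3 signal of experiment 2 had a part in these differences was not tested.

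Nascent RNA was set against the total RNA of the same culture. For Csf1r, Csf2ra and Csf3r the nascent level was below the total level in unstimulated cells, and for both Csf1 and Csf2 it stood above the total level at 45 min. Such a difference is relative to the other genes on the arrays. The amounts amplified were 100 ng for every nascent and 200 ng for every total array. The arrays did not share a common range, as the highest intensity was 14259 to 19320 on nascent and 17024 to 29578 on total arrays. In unstimulated cells 0 of the 7 genes were called higher and 3 lower in nascent RNA, where 7.58% of all genes were higher and 8.42% lower. At 45 min 2 were higher and 3 lower, against 11.2% and 14.2% of all genes. At 270 min 0 were higher and 2 lower, against 6.24% and 9.03%.

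**Figure D3:**
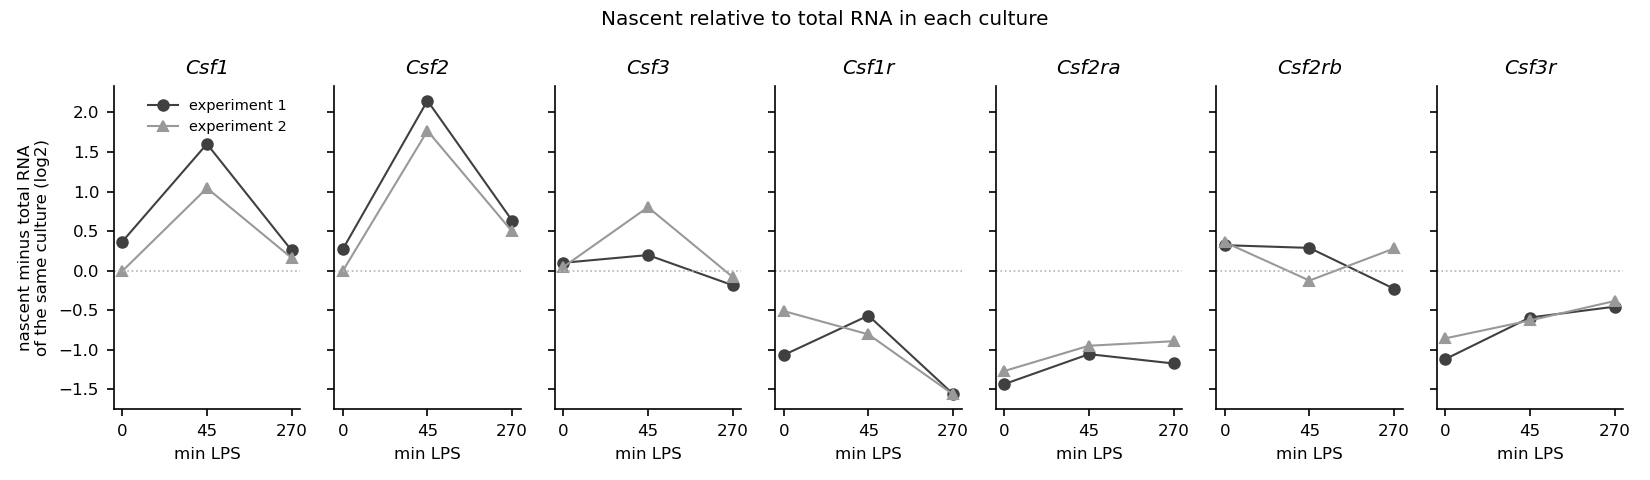
Nascent minus total RNA of the same culture (log2) for the 7 CSF genes at 0, 45 and 270 min of LPS, with a line for each of the 2 experiments. Csf1 and Csf2 peak at 45 min, at 1.60 and 1.04 for Csf1 and 2.15 and 1.77 for Csf2, whereas Csf1r is lowest at 270 min, at -1.56 in both experiments.

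For Csf2 the nascent minus total difference at 45 min was 2.15 and 1.77 in experiments 1 and 2 (mean 1.96 ± 0.21, adjusted p = 8.78e-07). At 270 min it was 0.64 and 0.50 and did not pass the test (0.57 ± 0.21, adjusted p = 0.0764, or 0.0361 with the experiment as a block). For Csf1 it was 1.60 and 1.04 at 45 min (1.32 ± 0.22, adjusted p = 0.000109), 0.37 and -0.0045 at 0 min and 0.26 and 0.16 at 270 min. Both ligands were thus higher in nascent than in total RNA at 45 min, and neither was called at the other times.

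For Csf1r the nascent minus total difference was -1.06 and -0.51 in unstimulated cells (-0.79 ± 0.16, adjusted p = 0.00145), -0.57 and -0.80 at 45 min (-0.69 ± 0.16, adjusted p = 0.00293) and -1.56 in each experiment at 270 min (adjusted p = 8.17e-07). For Csf2ra it was -1.43 and -1.27 in unstimulated cells (-1.35 ± 0.20, adjusted p = 9.26e-05), -1.05 and -0.95 at 45 min (adjusted p = 0.000934) and -1.17 and -0.89 at 270 min (adjusted p = 0.00122). For Csf3r it was -1.12 and -0.85 in unstimulated cells (-0.99 ± 0.19, adjusted p = 0.000869), -0.59 and -0.63 at 45 min (adjusted p = 0.0215) and -0.45 and -0.38 at 270 min, where it did not pass the test (adjusted p = 0.166). Csf2rb differed from these 3 receptor genes in that no nascent minus total difference was called for it, with means of 0.34, 0.08 and 0.03 at 0, 45 and 270 min and 95% confidence intervals of -0.02 to 0.70, -0.28 to 0.44 and -0.33 to 0.39. Leaving out a culture leaves 1 at its time, with the spread taken from the other times. Calls over all genes at 45 min then fell to 741 higher and 1547 lower without the culture of experiment 1 and to 860 and 1345 without that of experiment 2, against 2226 and 2834 with both. Without the 45 min culture of experiment 1 the calls of Csf1r (-0.80, adjusted p = 0.0556), Csf2ra (-0.95, adjusted p = 0.0579) and Csf3r (-0.63, adjusted p = 0.134) were lost, and without that of experiment 2 those of Csf1r (-0.57, adjusted p = 0.178) and Csf3r (-0.59, adjusted p = 0.21). The Csf3r call was also lost without either 270 min culture (adjusted p = 0.052 each), and the Csf2ra call at 270 min without the 270 min culture of experiment 1 (-0.89, adjusted p = 0.164).

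Whether a gene's response to LPS differed between nascent and total RNA was tested on the same culture differences. Between 45 min and unstimulated cells 1 gene had the larger change in nascent RNA (Csf2) and 0 the smaller, where 0.476% of all genes were called higher and 0.567% lower. The excess of Csf2 was 1.82 ± 0.29 (adjusted p = 0.00511), by 1.88 and 1.77 in experiments 1 and 2. It rests on unstimulated levels that were under background in both fractions. Csf1 had an excess of 1.14 ± 0.31 that did not pass the test (adjusted p = 0.0778, or 0.00283 with the experiment as a block). Between 270 min and unstimulated cells 0 genes were called in either direction, against 0.12% of all genes higher and 0.722% lower. The excess of Csf1 was then 0.03 (95% confidence interval -0.61 to 0.67). For Csf1r the nascent minus the total change was -0.77 (95% confidence interval -1.24 to -0.30, adjusted p = 0.173, or 0.0155 with the block). Between 270 and 45 min 0 genes were called higher and 2 lower (Csf2 and Csf1r), against 1.41% and 1.8% of all genes. The nascent minus the total change was -1.39 ± 0.29 for Csf2 (adjusted p = 0.0102) and -0.87 ± 0.23 for Csf1r (adjusted p = 0.0362). Csf1 was at -1.11 ± 0.31 (adjusted p = 0.0528, or 0.00267 with the block).

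With a 45 min culture left out, 1 remains at that time and few genes of any kind keep a call: for the response at 45 min 0 of all genes without the culture of experiment 1 (2705 at an unadjusted p below 0.05) and 6 without that of experiment 2, against 95 higher and 113 lower with both (limma). Leaving out a 0 min culture also leaves 1 at its time, and more genes were then called for that response than with all cultures. Why calls were lost without a 45 min culture was not tested, and some calls below were lost without a 270 min culture. The values without a culture are given for their size. For Csf2 at 45 min the call was lost without the 45 min culture of experiment 1 (1.63, adjusted p = 0.278) or 2 (2.01, adjusted p = 0.152). For Csf2 between 45 and 270 min it was lost without the 45 min culture of experiment 1 (-1.20, adjusted p = 0.181) or 2 (-1.58, adjusted p = 0.106) or the 270 min culture of experiment 2 (-1.32, adjusted p = 0.117). For Csf1r it was lost without the 45 min culture of experiment 1 (-0.76, adjusted p = 0.307) or 2 (-0.99, adjusted p = 0.259) or the 270 min culture of experiment 1 (-0.88, adjusted p = 0.156) or 2 (-0.87, adjusted p = 0.25).

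Among 10 relatives of the CSF ligands and receptors, the ligands Il34 (the other ligand of Csf1r), Il3 and Il5 and the receptors Flt3 and Il5ra were under background on all 12 arrays. Kit, the receptor of stem cell factor, and its ligand Kitl rose at 270 min. In nascent RNA Kitl rose by 0.91 ± 0.20 (adjusted p = 0.00414) and Kit by 0.82 ± 0.22 (adjusted p = 0.0133), and in total RNA Kitl rose by 0.92 ± 0.20 (adjusted p = 0.0044) and Kit by 0.87 ± 0.22 (adjusted p = 0.0106). Kit is also a marker of mast cells and their progenitors. With Csf2rb2, which was lower, 2 of the 10 relatives were called higher and 1 lower at 270 min in each fraction (median change 0.22 in nascent and 0.20 in total RNA, against 0.12 and 0.07 for all genes). At 45 min 1 and 0 were called higher in nascent and total RNA, the 1 being Il5, whose levels were under background in both groups. The IL-3 receptor alpha chain Il3ra was above background on all 12 arrays and was not called.

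In all, 20 genes of CSF receptor signalling were tested. Beside the counts of this and the following lists stand the shares of all genes called: in nascent RNA 3.05% higher and 5.88% lower at 45 min and 8.87% and 14.2% at 270 min, and in total RNA 0.662% and 0.0201% at 45 min and 7.02% and 12% at 270 min. In nascent RNA 1 was called higher at 45 min and 1 lower, and at 270 min 5 were higher and 6 lower, with medians of 0.19 and 0.11 against 0.11 and 0.12 for all genes. In total RNA 0 were called at 45 min, and 5 higher and 3 lower at 270 min (medians 0.06 and 0.17, against -0.01 and 0.07). Jak2, the kinase that Csf2rb and Csf3r use, had the largest rise, by 3.47 ± 0.20 in nascent RNA (adjusted p = 4.02e-08) and 3.13 ± 0.20 in total RNA at 270 min (adjusted p = 1.69e-07). Stat5a, the transcription factor downstream of Jak2, rose by 1.95 ± 0.20 and 2.10 ± 0.20, and the tyrosine kinase Src by 1.52 ± 0.25 and 2.12 ± 0.25. The survival kinase Akt1 was lower, with changes of -1.67 ± 0.28 in nascent and -0.89 ± 0.28 in total RNA.

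**Figure D4:**
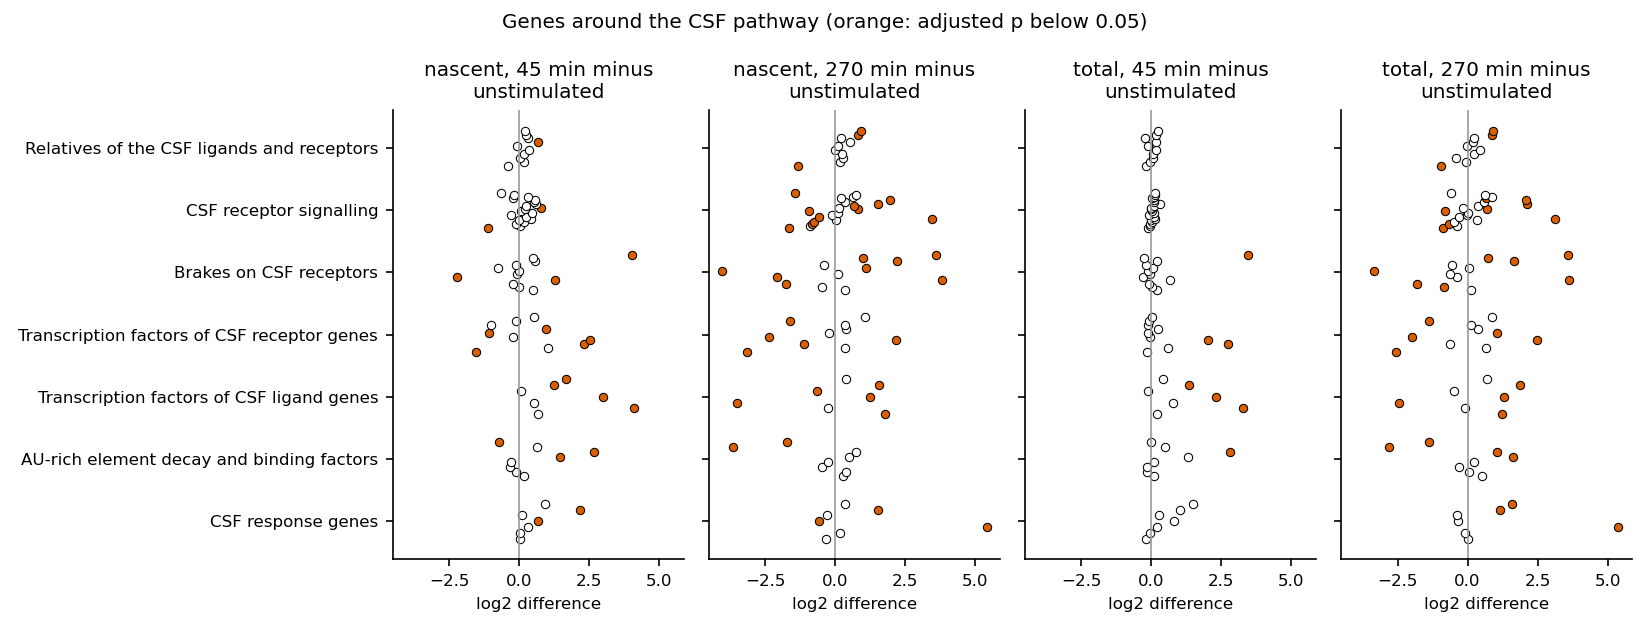
Log2 change of each tested gene of 7 lists around the CSF pathway, a point per gene, in nascent and total RNA after 45 and 270 min of LPS against unstimulated cells, orange where the adjusted p was below 0.05. Called genes lie on both sides of 0 in most lists at 270 min, and 0 of 20 signalling genes were called in total RNA at 45 min.

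Of 12 genes that restrain CSF receptors, 2 rose and 1 fell in nascent RNA after 45 min of LPS, and 5 rose and 3 fell after 270 min (medians -0.02 and 0.24, against 0.11 and 0.12 for all genes). In total RNA 1 was higher and 0 lower at 45 min, and 4 were higher and 3 lower at 270 min (medians -0.01 and -0.15, against -0.01 and 0.07). Socs3, an inhibitor of cytokine receptor signalling that acts on Csf3r, rose by 4.04 ± 0.28 in nascent RNA (adjusted p = 1.11e-06) and by 3.44 ± 0.28 in total RNA at 45 min (adjusted p = 1.18e-05), and was still 3.58 ± 0.28 and 3.57 ± 0.28 above unstimulated cells at 270 min. Cish, a STAT5 target and inhibitor, rose by 1.28 ± 0.21 at 45 min and 3.83 ± 0.21 at 270 min in nascent RNA (adjusted p = 0.00204 and 2.34e-08). In total RNA Cish rose at least 9.87-fold at 270 min (fitted 3.64 ± 0.21), its unstimulated arrays being under background. Inpp5d, which encodes the lipid phosphatase SHIP1, was 16.5-fold lower in nascent RNA at 270 min (-4.04 ± 0.23, adjusted p = 3.3e-08) and 10.1-fold lower in total RNA (-3.34 ± 0.23, adjusted p = 2.99e-07). The ubiquitin ligase Cblb was lower in total RNA at 270 min (-1.82 ± 0.18). In nascent RNA the adaptor Dok1 was lower at 45 min (-2.23 ± 0.49, adjusted p = 0.0111), and Socs1 higher at 270 min (2.21 ± 0.36). The genes of this list that moved thus went in both directions.

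Transcription factors known to act on CSF receptor genes were called in both directions. In nascent RNA 3 of 10 rose and 2 fell by 45 min, and 1 rose and 4 fell by 270 min (medians 0.23 and 0.05). In total RNA 2 were higher and 0 lower at 45 min, and 2 higher and 3 lower at 270 min (medians -0.02 and 0.24). Ets2 rose by 2.53 ± 0.27 in nascent RNA at 45 min (adjusted p = 6.01e-05) and Egr2, a factor of macrophage differentiation, by 2.32 ± 0.26 (adjusted p = 8.43e-05), while Irf8 was lower (-1.07 ± 0.29, adjusted p = 0.0344). At 270 min Egr2 was lower in nascent RNA (-1.13). Irf8 was higher in total RNA at 270 min (1.04), a different fraction from that of its fall at 45 min. Cebpa, a factor of myeloid commitment that acts on Csf3r, was lower in nascent RNA at 45 min (-1.56 ± 0.38, adjusted p = 0.0206) and at 270 min (-3.14 ± 0.38, adjusted p = 3.31e-05). At 270 min the ETS factor Fli1 (-2.37 ± 0.21, adjusted p = 1.57e-06) and Runx1, which acts on the Csf1r gene (-1.60 ± 0.25, adjusted p = 0.000323), were lower too. In total RNA at 270 min Cebpa was at -2.54 ± 0.38, Fli1 at -1.97 ± 0.21 and Runx1 at -1.36 ± 0.25, all called.

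Factors known to act on CSF ligand genes were mostly called higher early: in nascent RNA 4 of 7 rose by 45 min and 0 fell (median 1.26, against 0.11 for all genes). At 270 min 3 were higher and 2 lower (median 0.37). In total RNA 3 were higher and 0 lower at 45 min, and 3 higher and 1 lower at 270 min (medians 0.76 and 0.69). The AP-1 genes Fos and Junb rose by 4.09 ± 0.28 (adjusted p = 8.78e-07) and 2.99 ± 0.36 (adjusted p = 0.000146) in nascent RNA at 45 min. The NF-kB genes Rela and Rel rose by 1.67 ± 0.26 and 1.26 ± 0.22 (adjusted p = 0.00116 and 0.0027). Jun was lower at 270 min in nascent (-3.49 ± 0.38) and total RNA (-2.46 ± 0.38). Of 8 genes that bind or destroy RNAs with AU-rich elements, the class of RNA to which Csf2 belongs, 2 rose and 1 fell in nascent RNA by 45 min, and 0 rose and 2 fell by 270 min (medians 0.03 and 0.00), and in total RNA 1 was higher at 45 min and 2 were higher and 2 lower at 270 min (medians 0.10 and 0.14). Zfp36 (tristetraprolin, which speeds the decay of Csf2 RNA) rose by 2.69 ± 0.28 in nascent RNA (adjusted p = 4.49e-05) and 2.80 ± 0.28 in total RNA at 45 min (adjusted p = 6.73e-05). Its relative Zfp36l1 was at least 9.36-fold lower in nascent RNA at 270 min (fitted -3.67 ± 0.22, adjusted p = 5.04e-08).

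Of 7 genes known to respond to CSFs, 2 rose and 0 fell in nascent RNA by 45 min (median 0.33), and 2 rose and 1 fell by 270 min (median 0.18). In total RNA 0 were called at 45 min (median 0.28), and 3 were higher and 0 lower at 270 min (median 0.02, against 0.07 for all genes). Ccnd2, a D-type cyclin, rose by 5.40 ± 0.21 in nascent RNA (adjusted p = 1.12e-09) and by 5.38 ± 0.21 in total RNA (adjusted p = 9.34e-10) at 270 min, which is 42.3-fold and 41.6-fold. Myc rose by 2.18 ± 0.31 in nascent RNA at 45 min (adjusted p = 0.000691) and was 1.54 ± 0.31 above unstimulated cells at 270 min. The kinase gene Pim1 was higher in total RNA at 270 min (1.58 ± 0.33, adjusted p = 0.00342).

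Genes beside the CSF genes on the chromosome were examined by taking the nearest protein-coding gene with a value on each side in the RefSeq table, a choice made after other values had been seen. Csf1r and its neighbour Pdgfrb, which encodes a related receptor tyrosine kinase of mesenchymal cells, moved in opposite directions. Pdgfrb had nascent levels in experiments 1 and 2 of 5.92 and 5.70 at 0 min, 6.34 and 6.40 at 45 min, and 9.52 and 9.52 at 270 min, and total levels between 5.95 and 6.20 at 0 and 45 min and of 9.44 and 9.60 at 270 min. All arrays before 270 min were under the background level. At 270 min Pdgfrb was at least 9.27-fold higher in nascent RNA (fitted 3.70 ± 0.17, adjusted p = 4.41e-09) and at least 9.46-fold higher in total RNA (fitted 3.39 ± 0.17, adjusted p = 1.15e-08). It is also 1 of 6 fibroblast and stroma markers, of which 2 were above background on all arrays and Dcn on none. Hmgxb3, on the other side of Csf1r, was lower in nascent RNA at 270 min (-0.63 ± 0.21, adjusted p = 0.043). Beside Csf2, both Il3 and P4ha2 were under background on all 12 arrays. Beside Csf1, Ahcyl1 was lower in nascent RNA at 270 min (-0.64 ± 0.18, adjusted p = 0.0214), where Csf1 was higher. Beside Csf3r, Mrps15, which encodes a mitochondrial ribosomal protein, was lower in nascent RNA at 45 min (-0.94 ± 0.23, adjusted p = 0.0191), where Csf3r was at 0.49 and not called. The neighbours of Csf3, Psmd3 and Med24, were not called at either time.

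**Figure D5:**
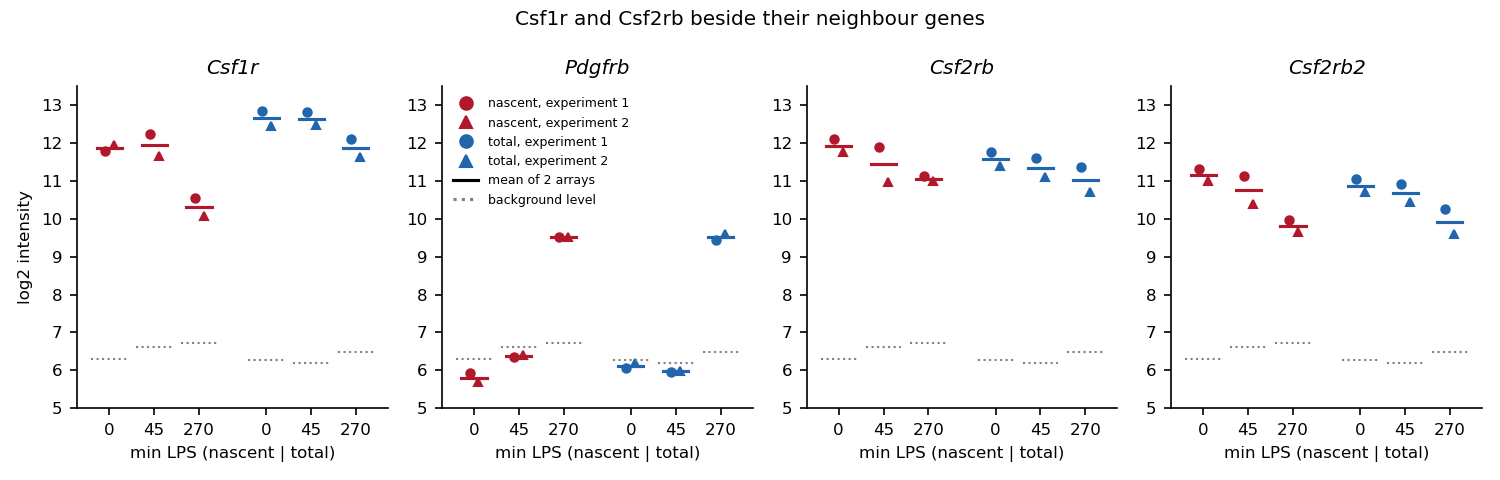
Log2 intensity of Csf1r and Csf2rb and, right of each, its neighbour gene (Pdgfrb and Csf2rb2) on the 12 arrays by min of LPS, nascent RNA in red and total RNA in blue, with group means as lines and the background level dotted. Pdgfrb is at 9.44 to 9.60 at 270 min and under the background level before, while Csf1r, Csf2rb and Csf2rb2 have their lowest means of each fraction at 270 min.

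The genes with the most similar levels over the 12 arrays were taken from 9963 genes with a mean at or above the median, by Pearson's correlation, which is given as a description. The arrays share cultures, times and fractions. For Csf1 these were Lmo4 (r = 0.993), Helz2 (r = 0.992) and N4bp1 (r = 0.989). For Csf2 they were the cytokine gene Clcf1 (r = 0.991), the chemokine gene Ccl4 (r = 0.991) and Il1rn, which encodes the IL-1 receptor antagonist (r = 0.990). The levels nearest to Csf1r were those of the calcium sensor gene Stim1 (r = 0.988), Smim14 (r = 0.986) and Scpep1 (r = 0.984). For Csf2ra they were Fxyd2 (r = 0.986), Calu (r = 0.981) and the complement gene C1qb (r = 0.973). Csf2rb had weaker likenesses, to Lrsam1 (r = 0.936), Sec16a (r = 0.926) and its own neighbour Csf2rb2 (r = 0.924). Csf3r was most like the actin regulator Cfl1 (r = 0.958), Gm13213 (r = 0.95) and Prcp (r = 0.934). For Csf3, which was under background throughout, the 3 nearest were Ssc4d (r = 0.937), Mir149 (r = 0.916) and Sez6 (r = 0.915).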

How the data were processed

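The assay was the Affymetrix Mouse Gene ST 1.0 array, of which 12 were run. The deposited intensities are linear, with a value for each probe set. Per the submitters' processing notes, the authors used RMA and Affymetrix Expression Console. The sources used here give neither tool versions nor whether the arrays were normalised jointly. The written test design assumed log2 values, and log2 was taken of the intensities with no pseudocount. RMA compresses the changes of dim genes, and every change is set against the rest of its arrays, and is never an amount in a cell.

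The arrays had 35557 probe sets. Among these, 21789 carried 1 symbol, 1621 carried several, and 12147 were not listed in the annotation table. Of the 19938 symbols, 999 had more than 1 probe set, and the one with the highest mean was taken. Dim genes were kept, so all 7 CSF genes were tested. RefSeq (GRCm38.p6) was used for names, neighbours and promoter windows. The authors' genome build: not given in the sources used here.

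limma 3.58.1 in R 4.3.3 fitted 1 mean per group to all 12 arrays for changes with time (residual degrees of freedom 6, prior 7.4), and 1 mean per time to the 6 nascent minus total differences of a culture for the rest (residual 3, prior 16.5), with an intensity trend and Benjamini-Hochberg adjustment over all genes. The fit of changes with time had no term for culture or experiment. It took the nascent and total arrays of a culture as independent, although they came from the same cells. Calls required an adjusted p below 0.05. Tables and figures used Python 3.11.15, numpy 2.4.6, pandas 2.3.3 and matplotlib 3.10.9, and the fits were tested on simulated data. The number of arrays limits the precision. The experiment number marks a shared experiment, per the series' design text. Deviations of same-numbered arrays from their group means correlated at r = -0.29 to 0.64 over 15 pairs of groups, above 0.1 in 10 of them. P-values cover the spread between these 2 experiments.

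The members, gene lists, markers and tests were chosen with earlier results of these data known. Named genes are the 7 members, the 3 genes with the most similar levels to each, and up to 4 called genes of a list with the largest change in a comparison. Neighbour genes, promoter motifs and single members of marker lists were added after their values were seen. Alternatives covered scaling, pseudocount, variance prior, filter, probe set choice, pairing, block and left-out arrays.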

Additional observations from a re-analysis of the deposited data

Results flagged for a closer look

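The change of 2 CSF genes with LPS differed between nascent and total RNA by the test of that difference (limma on the nascent minus total differences of each culture, adjusted p below 0.05). For Csf2 the nascent change exceeded the total change by 1.82 on the log2 scale between 45 min and unstimulated cells, and was lower than it (-1.39) between 270 and 45 min. For Csf1r the nascent change was lower than the total change (-0.87) between 270 and 45 min. Each difference had the same sign in both experiments. All 3 calls were lost without a 45 min culture, a setting that leaves 1 culture at that time and in which few genes of any kind keep a call. The Csf1r call was also lost without either 270 min culture. The Csf2 call between 270 and 45 min was also lost without the 270 min culture of experiment 2. Without pairing by culture, the Csf2 call at 45 min and the Csf1r call were lost.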

How the results depend on the processing

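No change of a single CSF gene that was called turned its sign under the alternatives run. For single genes, 565 values kept their side of the threshold, 27 gained a call and 34 lost it. Of the counts of CSF genes called, 200 were within 1.5 times of the count reported, those at exactly 1.5 times included, and 16 were further away. The calls of Csf1 and Csf2 with time were kept under all 21 alternatives each (Csf1 in nascent RNA at 270 min 3.72 to 4.13, Csf2 4.03 to 4.82), as were those of Csf1r in nascent RNA at 270 min (-1.79 to -1.31). With a culture left out, which leaves 1 at its time and takes the spread from the others, the number of CSF genes called between nascent and total RNA was 3 to 5 at 45 min (5 with all) and 1 to 3 at 270 min (2 with all). For the difference in response it was 0 to 2 between 45 min and unstimulated cells (1 with all), 0 to 1 between 270 min and unstimulated cells (0 with all) and 0 to 3 between 270 and 45 min (2 with all).

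With the experiment as a replicate block, 2 genes were called for the difference in response at 45 min and 1 at 270 min against unstimulated cells. That fit of the culture differences had an infinite prior for the degrees of freedom, which makes its p-values small. The block changed no other call than those given with the results. Without pairing by culture 0 genes were called for the difference in response at 45 min (against 1), where Csf2 had 1.82 (adjusted p = 0.095), and 1 between 270 and 45 min, where Csf1r had -0.87 (adjusted p = 0.331). That fit also lost the nascent minus total calls of Csf1r at 0 and 45 min (adjusted p = 0.0556 and 0.0645) and of Csf3r at 45 min (0.102). It gained a call of Csf3 as higher in nascent RNA at 45 min (0.50), a gene under the background level in both fractions. Without the intensity trend the total RNA call of Csf1r between 45 and 270 min (adjusted p = 0.0549) and its difference in response (0.11) were lost. Fitting the total arrays alone lost the first of these (adjusted p = 0.0533).

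Quantile scaling of all 12 arrays called 2 genes for the difference in response at 45 min, Csf1 with 1.37 (adjusted p = 0.0494) being the added one. It also moved the split of all genes called: in nascent RNA at 45 min 742 rose and 665 fell, against 609 and 1172 as deposited. For the difference in response it was 103 and 31 at 45 min against 95 and 113, and 153 and 397 between 270 and 45 min against 281 and 358. Scaling within each fraction gave 684 and 585, 59 and 13, and 127 and 334 for the same comparisons.

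Over all alternatives of a result, the adjusted p of the total RNA change of Csf1r ran from 0.00214 to 0.294 at 270 min against unstimulated cells, and from 0.00259 to 0.325 against 45 min. For Csf2rb at 270 min it ran from 0.00125 to 0.213 in nascent RNA, with a call under 7 of 21 alternatives, and from 0.0299 to 0.779 in total RNA, with a call under 1 of 21. For Csf2ra in nascent RNA at 45 min it ran from 0.0224 to 0.386. For nascent against total RNA at 45 min the range was 5.13e-07 to 0.178 for Csf1r, 8.79e-07 to 0.0579 for Csf2ra and 0.00149 to 0.21 for Csf3r, and at 270 min it was 6.05e-07 to 0.164 for Csf2ra and 0.0353 to 0.621 for Csf2. For the difference in response at 45 min it was 3.15e-07 to 0.278 for Csf2 and 0.00227 to 0.435 for Csf1. Between 270 and 45 min it was 0.00012 to 0.181 for Csf2, 4.83e-05 to 0.331 for Csf1r and 0.00149 to 0.406 for Csf1, which was called under 7 of 15 alternatives. Where a call was lost or gained, the cause was not tested. Csf3 throughout, and Csf2 and Pdgfrb before they rose, had signals under the background level, so that only bounds or no folds are given.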
